A study of Mus musculus with 3 samples.

Results

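Chromatin remodellers and histone-modifying enzymes were taken by gene symbol from the array's probe table: every gene whose symbol starts with Smarc, Hdac, Setd, Kmt or Kdm, or is Chd followed by digits, with Kdm5d left out. The rule gave 54 of 16593 named genes, represented by 89 of the 25697 probes on the array. RNA from 3 mouse cell lines had been hybridised to Illumina bead arrays, 1 array for each. E3 (hybrid background) and T9 (129 background) are epiblast stem cell (EpiSC) lines, a primed cell type that resembles the epiblast after implantation, and both were kept on inactivated CF1 mouse embryonic fibroblasts with 5 ng/ml FGF2 and collected with collagenase IV. OG2 (hybrid background) consists of naive embryonic stem cells (ESC) and was kept on gelatin without feeders, with 1 uM PD0325901 (a MEK inhibitor), 3 uM CHIR99021 (a GSK3 inhibitor) and 1000 U LIF, and collected on the dish. All lines were otherwise untreated and grown in KSR medium. Cell type, FGF2, LIF, inhibitors, feeders and harvest therefore changed together and cannot be told apart, and each line stands for itself.

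Chromatin remodellers use ATP to move or evict nucleosomes. They fall into SWI/SNF (also called BAF), ISWI, CHD and more distant families, and most act as the motor of a larger complex. Histone-modifying enzymes add or remove acetyl and methyl groups on histone tails: deacetylases (Hdac) remove acetyl groups, SET-domain enzymes (Setd, Kmt) add methyl groups to lysines, and Kdm enzymes remove them. Mouse ESC are known for a form of SWI/SNF built around the motor Smarca4 and the scaffold Smarcc1, while many differentiated cells also use the alternative motor Smarca2 and scaffold Smarcc2.

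A probe was called detected on an array at a detection p under 0.01, and a gene was measured if at least 1 of its probes was detected on at least 1 array. Of the 54 genes, 47 were measured, 42 of them on all 3 arrays. The other 7, not above background on any array by this rule, were Chd5, Chd6, Hdac9, Kdm2b, Kdm4d, Kdm5c and Smarcd3. Chd5 (lowest detection p 0.01003), Kdm5c (0.0113) and Kdm2b (0.0251) came nearest the threshold. Throughout, not above background means a detection p of 0.01 or more, and not that a transcript was absent. A gene is described by its brightest tested probe, and levels are normalized log2 intensities, which can be compared between lines for a gene but not between genes. The lines matched their labels: all 5 naive markers (Esrrb, Zfp42, Klf4, Tbx3, Nanog) lay 2-fold or more below OG2 in E3 and in T9. Of the 5 primed markers (Fgf5, Pou3f1, Otx2, Lefty1, Dnmt3b), 4 lay 2-fold or more above OG2 in both, and Dnmt3b did so in E3 but not in T9. Between 10768 and 11171 probes were detected per array, and the bead standard error had a median between 4.17% and 4.36% of the signal.

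The comparison of EpiSC with ESC asked which of these genes differ between primed and naive cells in their own media. None of the 70 tested probes of the 47 measured genes passed limma's test at an adjusted p of 0.05, against 1.15% of the 12603 probes tested over the whole array. At an unadjusted p under 0.05, 13 of the 70 passed (9 higher and 4 lower in EpiSC), against 23.2% of all probes. With 2 arrays against 1, the smallest fold that passed anywhere on the array was 6.003, above the 4.37-fold of Smarca1, the widest difference among the 47 genes. Nothing says that the lines were cultured more than once, so p-values rest only on the spread between E3 and T9. For each probe, limma drew this spread toward a value shared by all 12603 probes. The standard error of the 47 genes was therefore never below 0.25, also where E3 and T9 nearly coincided. OG2, with 1 array, adds no spread of its own. By size alone, 4 of the 47 measured genes were at least 2-fold higher in both EpiSC lines than in OG2, against 6.77% of 8688 measured genes, and 1 was at least 2-fold lower, against 7.07%. The 4 were the remodeller genes Smarca1, Smarca2 and Smarce1 and the demethylase gene Kdm4b, and the lower one was the remodeller gene Smarcad1. All 5 were detected on all 3 arrays. The median difference over the 47 genes was -0.04 on the log2 scale, against 0.05 over all measured genes, and the median absolute difference was 0.38 against 0.46.

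Promoters in RefSeq (GRCm38.p6) run from 250 bases before to 50 bases after a listed start. Of the 5 genes, Smarca1, Smarca2 and Smarcad1 matched an entry, and these are shown because their transcripts were at least 2-fold apart in both comparisons with OG2. The Smarca1 window is chrX:47892564-47892863 on the minus strand, the Smarca2 window chr19:26604910-26605209 on the plus strand, and the Smarcad1 windows, for alternative starts, chr6:65042341-65042640 and chr6:65042956-65043255 on the plus strand. Capitals mark GGGCGG or its reverse complement, the GC box bound by Sp factors.
Smarca1: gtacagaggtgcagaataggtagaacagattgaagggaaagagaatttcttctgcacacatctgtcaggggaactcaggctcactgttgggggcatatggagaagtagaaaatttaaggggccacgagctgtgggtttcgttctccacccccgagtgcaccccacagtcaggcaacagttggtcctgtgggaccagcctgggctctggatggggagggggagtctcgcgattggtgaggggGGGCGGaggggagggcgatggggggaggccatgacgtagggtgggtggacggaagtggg
Smarca2: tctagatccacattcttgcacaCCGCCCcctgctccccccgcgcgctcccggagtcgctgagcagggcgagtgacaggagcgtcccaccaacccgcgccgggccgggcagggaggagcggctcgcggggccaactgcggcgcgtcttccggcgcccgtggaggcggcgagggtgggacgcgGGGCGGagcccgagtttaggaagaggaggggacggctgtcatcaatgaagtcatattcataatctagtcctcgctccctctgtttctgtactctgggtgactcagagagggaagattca
Smarcad1 upstream: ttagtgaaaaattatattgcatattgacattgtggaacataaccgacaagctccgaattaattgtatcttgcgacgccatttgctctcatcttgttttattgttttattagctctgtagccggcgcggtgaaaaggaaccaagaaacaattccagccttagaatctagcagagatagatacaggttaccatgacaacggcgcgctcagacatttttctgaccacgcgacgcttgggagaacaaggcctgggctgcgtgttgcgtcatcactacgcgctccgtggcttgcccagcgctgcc
Smarcad1 downstream: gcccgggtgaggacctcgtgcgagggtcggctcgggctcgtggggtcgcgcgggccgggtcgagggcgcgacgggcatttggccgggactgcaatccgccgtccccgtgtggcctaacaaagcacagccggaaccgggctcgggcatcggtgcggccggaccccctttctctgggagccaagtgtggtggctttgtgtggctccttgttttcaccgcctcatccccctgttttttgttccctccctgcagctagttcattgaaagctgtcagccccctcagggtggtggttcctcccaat
The GC box occurred once in the Smarca1 window, 2 times in the Smarca2 window and 0 times in either Smarcad1 window. Neither TATAAA nor CACGTG, searched on both strands, was found in any of the 4. The windows held 9 CpG dinucleotides for Smarca1, 29 for Smarca2, and 19 and 25 for Smarcad1. Among the first listed promoters of the measured chromatin genes, 28 of 39 (71.8%) held the GC box, against 65.9% of 7083 measured genes and 35.9% of all 27025 listed genes. TATAAA was in 5.13% of the 39, 7.44% of the measured genes and 14.2% of all genes, and CACGTG in 5.13%, 10.4% and 7.24%. A match or its absence describes these letters only.

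Smarca1 encodes Snf2l, an ATPase of the ISWI family. Its deposited signal was 327 ± 14.4 in E3 and 277 ± 7.77 in T9, compared with 116 ± 5.75 in OG2 (bead SE within 1 array). Both EpiSC lines lay above OG2, E3 more so. Normalized, E3 lay at 8.01 and T9 at 7.68 against 5.72 for OG2, a difference of 2.13 ± 0.29 (limma SE, 2 arrays against 1), or 4.37-fold. Its limma adjusted p of 0.0704 was the smallest of the 70 probes. It passed the threshold with median scaling (0.0473) and with cyclic loess (0.0479), within a range of 0.0473 to 0.160 over all alternatives. In bulk RNA, fewer cells expressing a gene and less RNA per cell cannot be told apart.

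Smarca2 encodes Brm, the SWI/SNF motor that can stand in for Smarca4. Its signal was 244 ± 11.0 in E3 and 334 ± 19.5 in T9, compared with 127 ± 4.10 in OG2 (bead SE). The normalized levels were 7.47 in E3 and 8.03 in T9, compared with 5.98 in OG2, so that both primed lines lay above the naive line. The difference was 1.77 ± 0.35 (limma adjusted p = 0.0992), or 3.41-fold, and it was 1.13 when no background was subtracted, where E3 fell short of 2-fold. A second Smarca2 probe was not above background on any array. Smarca4, the motor used by ESC, had levels of 6.58 in E3 and 6.65 in T9, compared with 6.15 in OG2, a difference of 0.47 ± 0.25 that did not pass (limma adjusted p = 0.343).

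Smarce1 encodes Baf57, a DNA-binding subunit of SWI/SNF. Its signal was 536 ± 22.4 in E3 and 886 ± 45.3 in T9, compared with 252 ± 11.9 in OG2 (bead SE), and the normalized levels were 8.84, 9.66 and 7.57 in the same order. T9 stood highest and OG2 lowest. The difference from ESC was 1.67 ± 0.43, or 3.19-fold (limma adjusted p = 0.145), and the lines E3 and T9 were 1.76-fold apart. A second probe gave 8.61 in E3 and 9.21 in T9, compared with 7.27 in OG2, a difference of 1.64 ± 0.36, within 0.034 of the first.

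Kdm4b encodes a demethylase that removes repressive methyl marks from histone lysines. Its signal was 568 ± 14.8 in E3 and 580 ± 18.2 in T9, compared with 243 ± 10.9 in OG2 (bead SE). The EpiSC lines were nearly equal, at 8.94 and 8.97 against 7.51 in OG2, which gave a difference of 1.45 ± 0.25, or 2.73-fold (limma adjusted p = 0.0890). A dimmer Kdm4b probe differed by 0.75 ± 0.25, with 5.83 in E3 and 5.84 in T9, compared with 5.09 in OG2, and another was not above background.

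Smarcad1 encodes a Snf2-type ATPase linked to the silencing of retroelements in mouse ESC. By brightest probes it was the one gene at least 2-fold lower in both primed lines. A dimmer probe of Hdac6 (-1.50 in E3, -1.53 in T9) and one of Kdm3a (-1.25 in E3, -1.01 in T9) were also at least 2-fold lower. The Smarcad1 signal was 380 ± 14.5 in E3 and 306 ± 9.68 in T9, compared with 749 ± 25.6 in OG2 (bead SE). The levels were 8.27 in E3 and 7.88 in T9, compared with 9.47 in OG2, a difference of -1.40 ± 0.30, or 2.64-fold lower in EpiSC (limma adjusted p = 0.113). The plot of scanner signals shows these genes array by array.

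**Figure D1:**
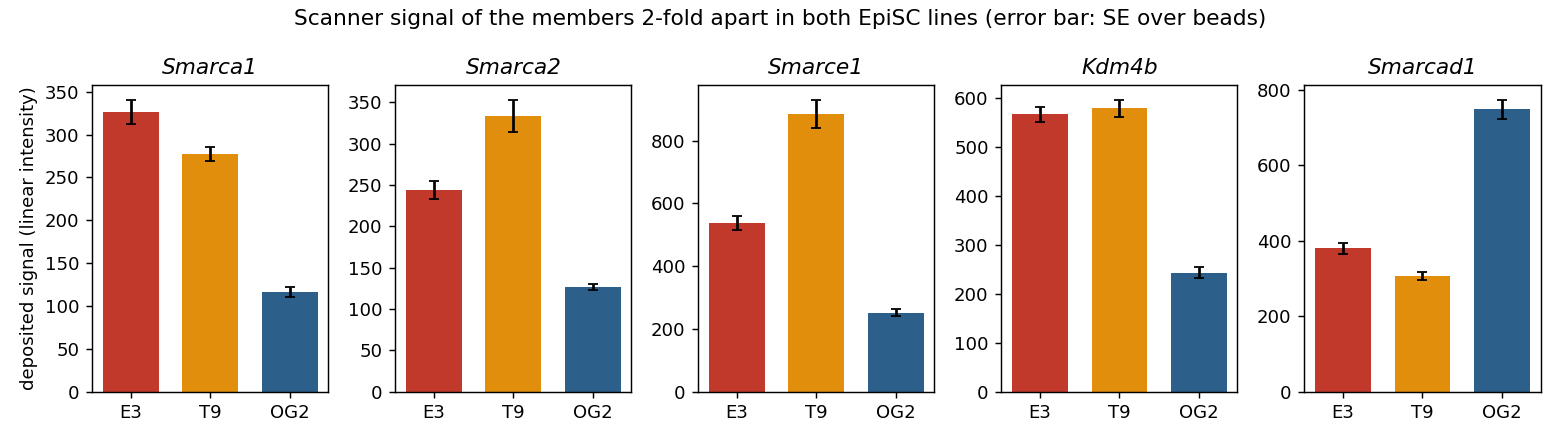
Deposited scanner signal (linear intensity, not background-subtracted) of Smarca1, Smarca2, Smarce1, Kdm4b and Smarcad1, with 1 bar per array (E3, T9, OG2) and the standard error over beads of that array. In the first 4 panels both EpiSC bars stand above the OG2 bar, and for Smarcad1 both stand below it.

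The feeder layer was present only under the EpiSC, and fibroblast markers were read beside these results. Of 11 markers 10 had a probe, and the arrays detected 3 (E3), 4 (T9) and 5 (OG2) of them. Col1a2, Col3a1, Pdgfrb, Postn and S100a4 were not above background on any array. The collagen gene Col1a1 lay at 4.63 in E3 (not above background) and 5.16 in T9, compared with 6.39 in OG2, and the proteoglycan gene Dcn at 6.49 in E3 and 5.79 in T9, compared with 7.10 in OG2. The surface protein gene Thy1 was the one detected marker above OG2 in both EpiSC lines, at 7.77 in E3 and 5.74 in T9, compared with 5.20. Summed on the linear scale, the 10 markers came to 806 for E3, 2220 for T9 and 1627 for OG2, and without vimentin (Vim) to 459 for E3, 269.8 for T9 and 396 for OG2. Their part in the Smarca1, Smarca2, Smarce1 and Kdm4b differences was not tested.

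Of the other SWI/SNF subunits, most lay close to the ESC level. The core subunit gene Smarcb1 had levels of 9.39 in E3, 9.39 in T9 and 9.40 in OG2, a difference of -0.01 ± 0.25, and the 3 lines were nearly equal. Smarcd2 differed by -0.03 ± 0.27 and Smarcd1 by 0.35 ± 0.26. The scaffold gene Smarcc1 lay at 8.28 in E3 and 8.26 in T9, compared with 8.69 in OG2 (-0.42 ± 0.25), and a dimmer probe of it gave a difference of the opposite sign (0.27 ± 0.25). The alternative scaffold gene Smarcc2 was detected in T9 only, at 4.94, close to background. Smarcal1, an annealing helicase of stalled replication forks, lay at 6.85 in E3 and 6.86 in T9, compared with 7.43 in OG2. The 11 measured Smarc genes ranged from -1.40 to 2.13 with a median of -0.01, the widest range of the 6 families.

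By their brightest probes, the 4 measured CHD remodellers ranged from -0.33 to 0.32. Chd4, the motor of the NuRD co-repressor complex, had 9.22 in E3 and 9.36 in T9, compared with 8.97 in OG2 by its brightest probe (0.32 ± 0.26). Its other probes disagreed, one with 7.54 in E3 and 7.28 in T9, compared with 6.19 in OG2 (1.22 ± 0.28) and one with a difference of -0.21 ± 0.28, and the cause was not tested. Chd1, which keeps chromatin open in mouse ESC, differed by -0.04 ± 0.27, and Chd8, a binding partner of beta-catenin, by -0.14 ± 0.33. Chd1l, a remodeller activated by poly(ADP-ribose), differed by -0.33 ± 0.27.

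The deacetylases ranged from -0.54 to 0.78 over 10 measured genes, with a median of -0.05. Hdac1 and Hdac2, the class I enzymes of NuRD, SIN3 and CoREST, stayed near the ESC level: Hdac2 had 10.83 in E3, 10.85 in T9 and 10.86 in OG2 (-0.02 ± 0.25), and Hdac1 differed by -0.33 ± 0.25. Hdac3, the enzyme of the NCoR and SMRT co-repressors, had 9.62 in E3 and 9.56 in T9, compared with 9.08 in OG2 (0.51 ± 0.25, limma adjusted p = 0.308). Hdac8, which acts on cohesin, differed by -0.54 ± 0.34.

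Among class IIa deacetylases, which shuttle between cytoplasm and nucleus, Hdac5 had 9.07 in E3 and 9.41 in T9, compared with 8.47 in OG2 (0.78 ± 0.29, limma adjusted p = 0.227), and its other probes gave 0.68 ± 0.33 and 0.28 ± 0.33. Hdac7 lay at 5.26 in E3 and 5.83 in T9 and was not above background in OG2 (4.79). The mean of the 2 EpiSC lines was at least 1.59-fold higher. By measured level E3 was 1.38-fold and T9 2.05-fold higher, with a difference of 0.75 ± 0.35 (limma adjusted p = 0.294). Hdac4 differed by -0.12 ± 0.29. Hdac11, the class IV enzyme, was likewise detected in both EpiSC lines (4.94 and 5.05) and not in OG2 (4.30). The mean of the 2 EpiSC lines was at least 1.09-fold higher, and the measured difference was 0.69 ± 0.26 (limma adjusted p = 0.223). Hdac6, the cytoplasmic tubulin deacetylase, had probes that differed in size: the brightest gave 6.50 in E3 and 7.29 in T9, compared with 7.40 in OG2 (-0.50 ± 0.43), and the other 5.35 in E3 and 5.32 in T9, compared with 6.85 in OG2 (-1.51 ± 0.25, 2.86-fold lower, limma adjusted p = 0.0862). Hdac10, which prefers polyamines as substrate, was detected in E3 (5.24) and OG2 (4.89) but not in T9.

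**Figure D2:**
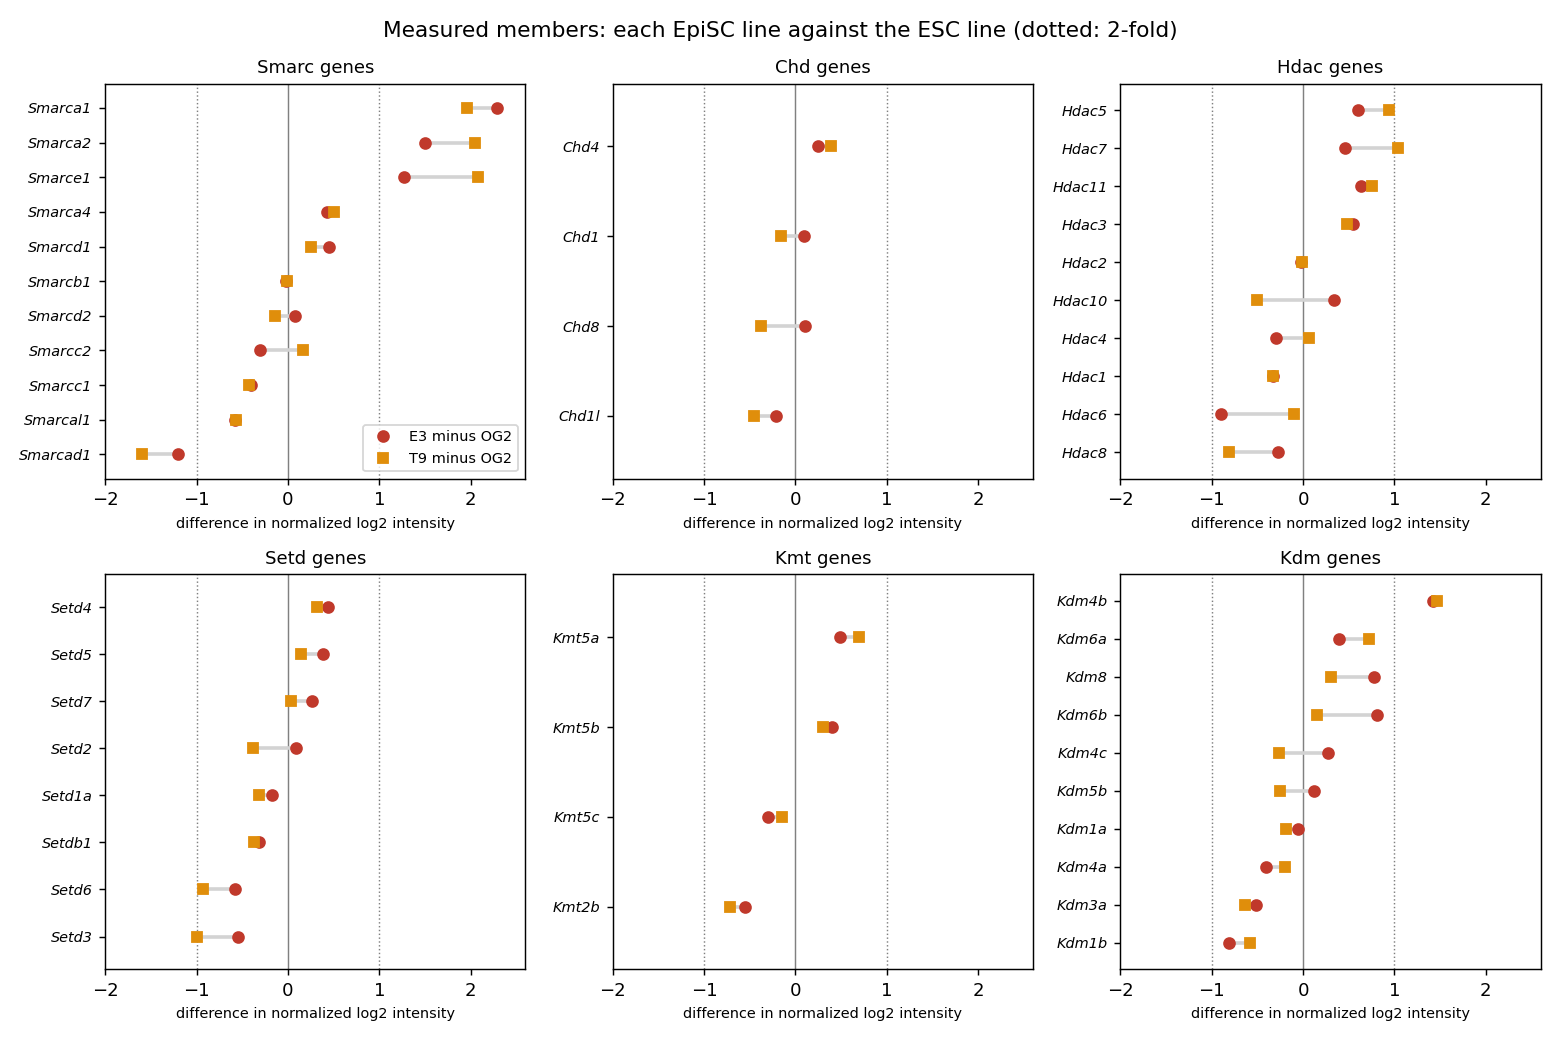
Difference in normalized log2 intensity of E3 (circles) and T9 (squares) from OG2 for the 47 measured genes by family, with dotted lines at 2-fold; both differences share the OG2 array. Smarca1, Smarca2, Smarce1 and Kdm4b lie beyond 1 and Smarcad1 beyond -1 in both lines, and of the other genes only Hdac7 in T9 lies past a dotted line.

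Methyltransferases were described by the type of enzyme. Of the COMPASS-type activators, Kmt2b, which acts at bivalent promoters in mouse ESC, had 7.31 in E3 and 7.15 in T9, compared with 7.87 in OG2 (-0.64 ± 0.26, limma adjusted p = 0.2505), and Setd1a differed by -0.25 ± 0.26. Setdb1, which silences retroelements in mouse ESC, had 7.90 in E3 and 7.84 in T9, compared with 8.21 in OG2 (-0.35 ± 0.25). Setd2, which marks transcribed gene bodies, differed by -0.15 ± 0.32. Of the enzymes acting on histone H4, Kmt5a had 8.30 in E3 and 8.51 in T9, compared with 7.81 in OG2 (0.59 ± 0.27), with all 4 of its probes between 0.18 and 0.85. Kmt5b (0.35 ± 0.25, other probes -0.28 and -0.32) and Kmt5c (-0.22 ± 0.26) had no common direction.

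The 2 Setd genes lowest in EpiSC have known targets outside histones. Setd3, the actin histidine methyltransferase, had 5.96 in E3 and 5.51 in T9, compared with 6.51 in OG2 (-0.77 ± 0.32), and Setd6, which methylates the NF-kappaB subunit RelA, had 8.55 in E3 and 8.21 in T9, compared with 9.13 in OG2 (-0.75 ± 0.29), with limma adjusted p of 0.2505 and 0.235. Setd4 (0.38 ± 0.26) and Setd5 (0.26 ± 0.27) lay slightly above ESC. Setd7 was near background on all arrays. Its brightest probe was detected in E3 (5.12) and T9 (4.88) but not in OG2 (4.85). A second Setd7 probe was detected in E3 (5.28) and OG2 (4.87) but not in T9 (4.49). The 8 measured Setd genes had a median of -0.20 and the 4 measured Kmt genes one of 0.06.

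The demethylases apart from Kdm4b stayed within 2-fold of ESC by their brightest probe. Kdm1a, the flavin-dependent enzyme of CoREST, had 10.92 in E3 and 10.78 in T9, compared with 10.97 in OG2 (-0.12 ± 0.26), and its relative Kdm1b 5.80 in E3 and 6.03 in T9, compared with 6.61 in OG2 (-0.70 ± 0.27). Kdm3a, which removes repressive marks and is a Pou5f1 target in mouse ESC, was lower by all 3 of its probes, with 9.61 in E3 and 9.50 in T9, compared with 10.13 in OG2 (-0.58 ± 0.26), and -0.86 ± 0.25 and -1.13 ± 0.27 for the others (limma adjusted p from 0.128 to 0.273). Within the Kdm4 group Kdm4a differed by -0.30 ± 0.27 and Kdm4c by 0.005 ± 0.34, and whether these differ from Kdm4b was not tested. Kdm6b, which removes Polycomb's mark, had scanner signals of 269 in E3 and 198 in T9, compared with 176 in OG2 (log2 difference 0.48 ± 0.38), and a second probe had levels of 7.31 in E3 and 6.85 in T9, compared with 6.04 in OG2 (1.04 ± 0.32). Kdm8 differed by 0.54 ± 0.32 and Kdm5b by -0.06 ± 0.30.

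For 16 genes more than 1 probe was tested. Their probes differed in the EpiSC minus ESC value by a median of 0.53, 4 genes (Chd4, Kmt5b, Setd4, Smarcc1) had probes on both sides of 0, and 2 (Chd4 and Hdac6) had probes 1 or more apart. Probes of 1 gene share the RNA of the same arrays and are not replicates. Whether the probes read different isoforms was not tested.

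**Figure D3:**
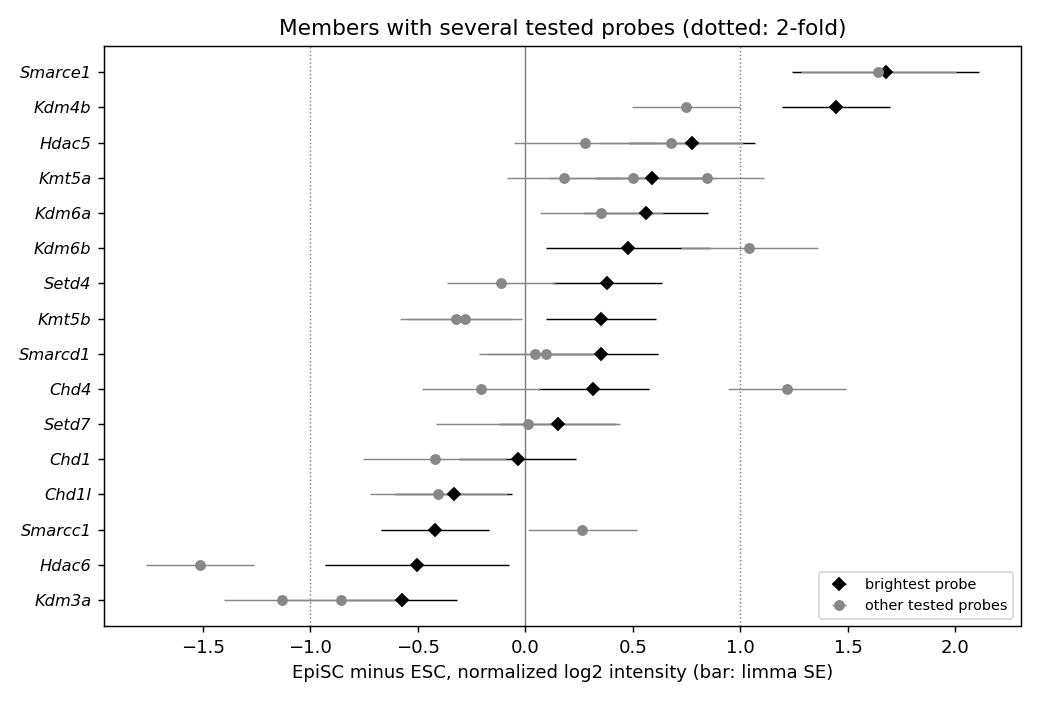
EpiSC minus ESC difference (normalized log2 intensity, limma SE) for every tested probe of the 16 genes with several, with the brightest probe as a diamond. The 2 Smarce1 probes nearly coincide, at 1.67 and 1.64, while Chd4 runs from -0.21 to 1.22.

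Of the 54 genes 5 lie on the X chromosome, and 4 of them were measured. Besides Smarca1, Hdac6 and Hdac8 these included Kdm6a, the demethylase of Polycomb's mark that escapes X inactivation, with 8.85 in E3 and 9.18 in T9, compared with 8.45 in OG2 (0.56 ± 0.29, limma adjusted p = 0.326) and 8.49, 8.80 and 8.29 by a second probe. T9 stood highest for both probes. Xist, the RNA of the inactive X, was detected in T9 alone, at 7.65, and its part in the Kdm6a level was not tested. Kdm5c was not above background.

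The comparison of E3 with T9 asked whether the 2 primed lines differ, with 1 array each and no test. Of the 47 genes 0 were 2-fold higher in E3, against 2.41% of the 8688 measured genes, and 0 were 2-fold higher in T9, compared with 3.38% (5.79% in either direction). The SD of the E3 minus T9 difference was 0.36 over the 47 genes and 0.55 over all measured genes, and the median absolute difference was 0.23 against 0.27. The largest differences were those of Hdac10 (0.85, E3 higher, not above background in T9), Smarce1 (-0.82, T9 higher), Hdac6 (-0.80, T9 higher) and Kdm6b (0.66, E3 higher). At the other end Hdac1, Smarcb1 and Smarcal1 lay within 0.01 of each other in the 2 lines.

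**Figure D4:**
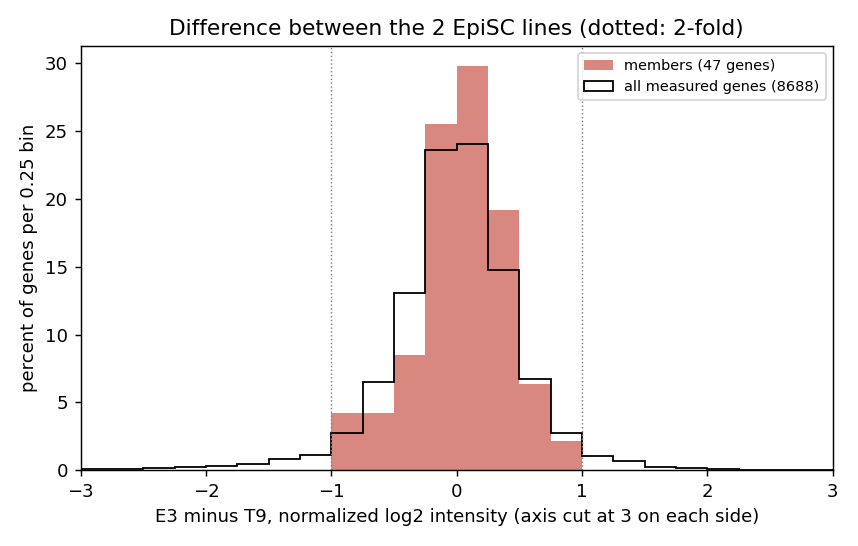
Distribution of the E3 minus T9 difference (normalized log2 intensity, bins of 0.25, percent of genes) for the 47 measured chromatin genes (filled) and all 8688 measured genes (line). No filled bin lies beyond the dotted 2-fold lines.

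Partner subunits and other chromatin enzymes were read from 9 lists, with 75 of 112 entries measured. Of the 75 genes 1 passed limma's test, against 1.22% of all measured genes. This was Kat6b, an acetyltransferase of the MYST family, which fell in EpiSC: its signal was 263 in E3 and 227 in T9, compared with 1541 in OG2, the levels 7.61 and 7.29 against 10.58, and the difference -3.13 ± 0.29, or 8.78-fold lower (limma adjusted p = 0.0444, 0.0216 to 0.160 over the alternatives). It did not pass with all probes of the array tested or with the authors' processed values. Leaving aside this probe, 3 Kat6b probes were detected in OG2 only and were at least 1.29-fold to 1.91-fold lower in EpiSC. By measured level, the acetyltransferase genes Kat6b and Kat2b were 2-fold or more below OG2 in E3 and in T9, Kat2b without being above background in E3. The coactivator gene Ncoa1 was not above background in either EpiSC line and was at least 1.90-fold lower.

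Across the 9 lists 7 genes were 2-fold or more below OG2 in both lines by measured level and 1 above it, against 7.07% and 6.77% of all measured genes. The 7 include Ncoa1 and Tbl1xr1, which were detected in OG2 only and whose bounds, at least 1.90-fold and 1.88-fold lower, do not reach 2-fold. With T9 alone 11 were lower and 2 higher, and with E3 alone 7 and 2. Shares over all measured genes were not computed for single lines, so these counts have no background to be read against. The higher gene was the arginine methyltransferase gene Carm1, with 8.65 in E3 and 8.43 in T9, compared with 7.37 in OG2 (1.17 ± 0.27, limma adjusted p = 0.121). The lower ones included Ash2l, a core subunit of COMPASS methyltransferases, with 9.67 in E3 and 9.81 in T9, compared with 11.60 in OG2 (-1.86 ± 0.26, 3.63-fold lower, limma adjusted p = 0.0722), and a second Ash2l probe differed by -0.85 ± 0.25. Ash2l passed under 4 of the alternatives, with limma adjusted p of 0.0348 to 0.160 over all of them. Its partners Rbbp5 (-1.49 ± 0.52) and Wdr5 (-0.97 ± 0.31) did not pass, and Rbbp5 was 2.05-fold apart between E3 and T9. Of the other measured COMPASS partners, Men1 lay above ESC (0.50 ± 0.25) and Cxxc1 near it (0.01 ± 0.25). Dpy30, Hcfc1 and Ncoa6 lay between -0.46 and -0.30. The sirtuin genes Sirt6 and Sirt7 (NAD-dependent deacylases) and Tbl1xr1 of the NCoR complex completed the 7, with limma adjusted p from 0.0991 to 0.119. Another Sirt6 probe differed by -0.77 ± 0.25 and a further one by -0.74 ± 0.25, both short of 2-fold in each line. The further one was detected in OG2 only and was at least 1.51-fold lower in EpiSC.

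None of the measured partner subunits of SWI/SNF was 2-fold apart in both lines, against 6.77% of all measured genes higher and 7.07% lower. The 10 measured ones ranged from -0.52 to 0.31 with a median of -0.09, and 0 passed limma's test (1.22% of all measured genes) or had an unadjusted p under 0.05 (24.2% of all measured genes). Brd9, a bromodomain subunit, had 7.21 in E3 and 7.57 in T9, compared with 7.88 in OG2 (-0.49 ± 0.30), and the DNA-binding subunit gene Arid1a was detected in OG2 only, at least 1.10-fold lower in EpiSC. Of 6 NuRD partners, Mta1 (0.91 ± 0.25) and Mta3 (-0.87 ± 0.25) lay on opposite sides and neither passed. Among other enzymes, the arginine methyltransferase gene Prmt6 (-0.78 ± 0.27) and the lysine methyltransferase gene Nsd1 (-0.86 ± 0.25) lay below ESC and neither passed. The 5 genes listed as other demethylases were grouped by list, and enzyme activity was not measured. Of these, Hspbap1 lay below ESC (-1.13 ± 0.36) and Jmjd6 (0.97 ± 0.26) and Phf2 (1.02 ± 0.32) above it, and none passed. The 11 SIN3, CoREST and NCoR partners had a median of -0.02, the 8 COMPASS partners -0.40, and the 10 ISWI, INO80 and SRCAP partners -0.10. The median was -0.64 for the 6 sirtuins and 0.21 for the 10 other methyltransferases. It was 0.37 for the 5 genes listed as other demethylases and -0.25 for the 9 acetyltransferases.

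**Figure D5:**
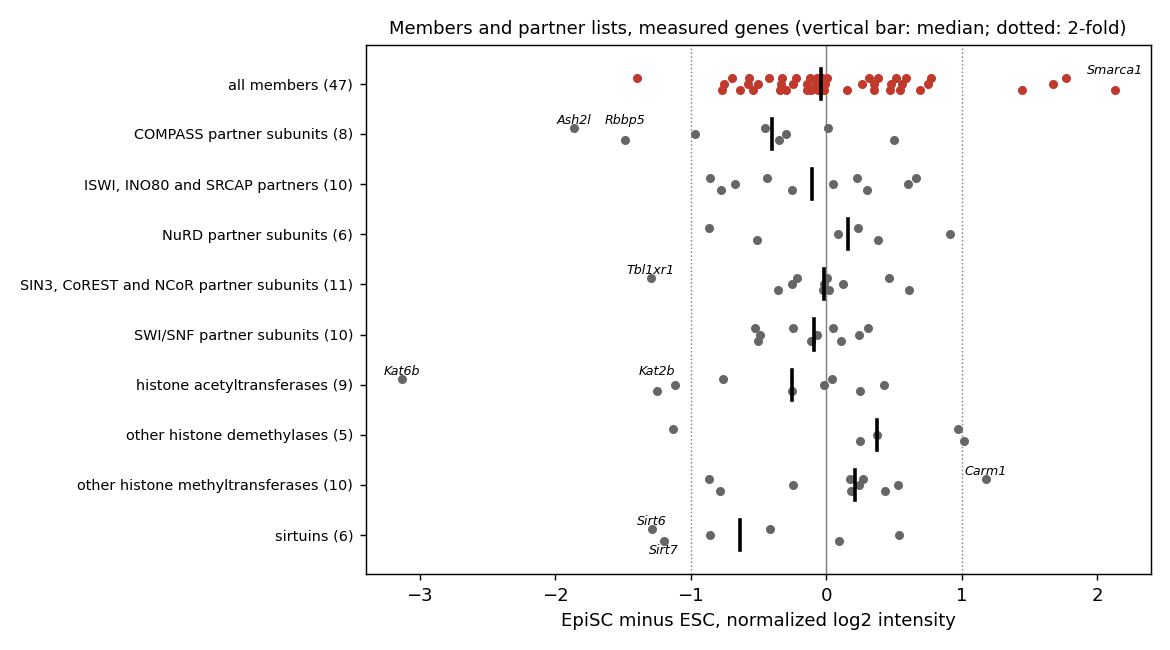
EpiSC minus ESC difference (normalized log2 intensity) for the 47 measured chromatin genes and the measured genes of 9 partner lists, 1 point per gene, with the list median as a bar. Kat6b at -3.13 and Ash2l at -1.86 lie furthest to the left, and Smarca1 at 2.13 furthest to the right.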

How the data were processed

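Each line's RNA (400 ng, 12 h transcription in vitro) went to 1 array, per the labels' protocols. The authors' scanner tables hold a linear signal intensity, a bead standard error and a detection p-value for every probe, per the file headers, without background subtraction (lowest intensity 66.7). BeadStudio was used, per the submitters' processing notes, in a version not given in the sources used here. A deposited table of processed intensity values, of unstated normalization but ranking probes as the scanner signals do, served as an alternative. The platform's probe table named 23978 of 25697 probes.

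Background correction (nec of limma 3.58.1 in R 4.3.3, offset 16), log2 and quantile normalization followed. The offset makes folds of dim probes smaller. Probes detected (p under 0.01) on any array were fitted with lmFit and eBayes, two-sided, Benjamini-Hochberg adjusted over 12603 probes, threshold 0.05. The fit was tested on simulated data. Bounds set the undetected side to the array's lowest detected level, or its own level if higher. For EpiSC they refer to the mean of E3 and T9, not to each line. Single lines have no test and were read by a 2-fold rule. Replicate numbers are names only. Alternatives changed the scaling, background, offset, probe filter, variance trend or values used, or left out a line.

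By rule, every chromatin gene could be named, with values on every array for those past the threshold, 2-fold apart in both lines or between E3 and T9, or detected on 1 side; other members were given by family with examples, and partner lists by genes past the threshold and up to 3 with the widest differences in both lines. Values of further members were added after they were seen. Members and lists were chosen with earlier results of these data known.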

Additional observations from a re-analysis of the deposited data

How the results depend on the processing

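The 5 genes at least 2-fold apart in both lines kept their direction under every alternative run. Smarca1 passed the limma threshold with median scaling (2.11, adjusted p = 0.0473) and cyclic loess (2.11, 0.0479), where 1 of the 70 probes passed in place of 0. Partner probes past the threshold numbered 2 in place of 1 with median scaling, cyclic loess, no background correction and an intensity trend, and 0 with all probes and with the authors' processed values. Partner genes 2-fold higher and lower, 1 and 7, became 0 and 2 with an offset of 50 and without background correction, and 2 and 12 with the authors' values; with only probes detected on all 3 arrays 4 were lower. Between E3 and T9 the authors' values put 1 gene 2-fold higher in each line (Hdac10 and Smarcc2, each with a blank value on the other side) in place of 0. Over all probes 145 passed, against 378 with median scaling, 344 with cyclic loess, 256 with an intensity trend, 93 with probes detected on all 3 arrays, and 0 with all probes and with the authors' values. Leaving out 1 EpiSC line, which leaves no test, gave 4 to 5 genes higher and 1 lower, a Smarca1 difference of 1.97 to 2.29, a median of -0.10 to 0.09, and 2 partner genes higher with 7 to 11 lower. Without background correction Smarca2 was no longer 2-fold higher in E3, leaving 3 genes; with the authors' values Hdac11 joined the 4. Of 495 values, which cover single genes and the median over the chromatin genes, 13 changed sign. All had a main value within 0.15 of 0. The median was among them, going from -0.04 to 0.09 with T9 left out. The cause of these changes was not tested, and no share over all measured genes was computed for the 2-fold counts under the alternatives. No paired analysis was possible because the labels give no replicate numbers and ESC has 1 array. The number of arrays limits the precision, and dim genes near background are the least certain.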
